A study of Homo sapiens with 6 samples.

Results

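The cytosolic ribosomal proteins were followed at the level of their mRNAs in Caco-2 cells with and without a CRISPR knockout of CBS. Members were the rows of the deposited gene table whose symbol begins with RPL or RPS and a digit, together with RPLP0, RPLP1, RPLP2 and RPSA; S6 kinases, the Y-linked RPS4Y genes, RPS27A, antisense names and pseudogene names were left out. The rule matched 86 of 16781 genes and used no measured value. Of these 86 genes, 76 code for canonical ribosomal proteins, 46 of the large and 30 of the small subunit. A further 6 are paralogs (RPL3L, RPL7L1, RPL22L1, RPL26L1, RPL36AL and RPS27L), 3 are readthrough loci, and RPS19BP1 codes for a protein that binds RPS19 and is no ribosomal protein. All 76 canonical genes, 5 of the 6 paralogs, the 3 readthrough loci and RPS19BP1 had enough reads for a test.

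RNA was sequenced in 6 libraries of Caco-2, an established human line from a colon adenocarcinoma that can take on features of absorptive enterocytes. The 3 CBS KO libraries came from cells infected with a lentivirus carrying Cas9, a guide against CBS and a puromycin resistance gene, then selected with puromycin. The 3 WT libraries came from unmodified Caco-2 cells, and a guide-free vector line was not analysed here, so infection, selection and knockout cannot be told apart. CBS makes cystathionine from homocysteine and serine, and is a source of hydrogen sulfide. The sources used here do not say whether the knockout population is a clone, nor whether replicates were grown separately; the p-values measure the spread between these libraries, which may be technical. The title of the series names RPS20 as a target of sulfhydration by hydrogen sulfide, a change of the protein that mRNA counts do not measure.

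A cytosolic ribosome joins a small subunit, which reads the mRNA, to a large subunit, which forms peptide bonds and passes the new chain through an exit tunnel. Each subunit is built from ribosomal RNA and many ribosomal proteins that are needed in about equal numbers, and growing intestinal epithelial cells devote much of their mRNA to them. Most of these mRNAs start with a cytosine followed by a run of pyrimidines, the 5′ terminal oligopyrimidine (TOP) motif, through which mTOR signalling controls their translation and LARP1 their stability.

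The starts of selected genes are shown because the motif marks most of the family and differs between several paralogs and their parents. Each line gives 10 bases before and 20 bases from the transcript start that RefSeq annotates on GRCh38.p14, and capitals mark a C at the start followed by at least 4 bases that are each C or T. The first 4 are the members with an entry that rose most in each subunit (RPL26 and RPS19) or least (RPL7A and RPS26), and the others are paralogs and parents.
RPL26 (chr17:8383174-8383203, minus strand): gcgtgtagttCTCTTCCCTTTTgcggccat
RPS19 (chr19:41860245-41860274, plus strand): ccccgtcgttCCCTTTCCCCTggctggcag
RPL7A (chr9:133348208-133348237, plus strand): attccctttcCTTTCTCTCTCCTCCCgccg
RPS26 (chr12:56041908-56041937, plus strand): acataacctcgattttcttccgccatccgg
RPL22 (chr1:6199576-6199605, minus strand): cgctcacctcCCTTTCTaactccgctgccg
RPL22L1 (chr3:170870176-170870205, minus strand): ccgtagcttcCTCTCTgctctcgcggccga
RPL36A (chrX:101391001-101391030, plus strand): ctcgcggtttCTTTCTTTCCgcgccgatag
RPL36AL (chr14:49620607-49620636, minus strand): tcttccctttcctgttaggcgagagctgcg
RPS27 (chr1:153990752-153990781, plus strand): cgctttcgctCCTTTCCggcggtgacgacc
RPS27L (chr15:63157458-63157487, minus strand): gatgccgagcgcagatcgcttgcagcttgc
RPL26L1 (chr5:172958719-172958748, plus strand): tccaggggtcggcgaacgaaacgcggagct
RPL7L1 (chr6:42879606-42879635, plus strand): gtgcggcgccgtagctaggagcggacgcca

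Such a tract stood at the annotated start of 42 of the 61 canonical genes with an entry (68.9%). The share was 5.37% of the genes tested and 4.05% of all 27195 promoters used. Promoters on chromosome 8, which holds RPS20 and RPL30 among others, were left out, so its genes have no entry here. The tract stood at 25 of 38 large-subunit and 17 of 23 small-subunit starts. Among 5 paralogs with an entry it was found at RPL22L1 only. In RPL36AL a pyrimidine run lies just before the annotated start, and an annotated start need not be the one used in these cells. In the 300 bases around the start, CCGGAAG, the core bound by ETS-family factors, was present on either strand in 32.8% of canonical genes, 18.9% of genes tested and 10.7% of all promoters. AAGATGGC, the YY1 core, was present in 9.84% of canonical genes, 5.23% of genes tested and 3.03% of all promoters. TATAA was present in 18.0% of canonical genes, more than in genes tested (11.5%) and less than in all promoters (21.2%).

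The libraries held 12805180 to 14307287 estimated counts in CBS KO and 16097680 to 16176745 in WT. CBS itself, in TMM-scaled counts per 1000000 (CPM), stood at 24.6, 18.5 and 25.4 in CBS KO, against 48.8, 53.0 and 50.6 in WT (log2 fold change −1.15 ± 0.10 SE, edgeR's quasi-likelihood test, adjusted p = 1.18e-08). Its near-identical copy CBSL was not called with TMM (adjusted p = 0.12) and was called lower with library totals (log2 fold change −0.90) and on log2(TPM + 1) (−0.88), and reads may be split between the copies. Epithelial markers summed to 8470 to 9291 CPM in CBS KO and 7359 to 7861 CPM in WT. Within that list EPCAM rose and VIL1, CDX2 and HNF4A fell with TMM, library totals and log2(TPM + 1). With TMM their log2 fold changes were 1.09, −0.32, −1.94 and −1.24. CDH1 was not called with TMM (−0.005) and was called lower with library totals (−0.36) and on log2(TPM + 1) (−0.59). CDX1 was near 0 in every library. KRT8, KRT18 and KRT19 were called higher with TMM (0.50, 0.34 and 0.43) and not called with library totals, and on log2(TPM + 1) KRT18 (−0.24) and KRT19 (−0.16) were called lower. Of the leukocyte list, LYZ made up most of the 7.82 to 8.78 CPM in CBS KO and 2.36 to 2.75 CPM in WT, with PTPRC at or near 0. Endothelial markers summed to 9.23 to 9.92 CPM in CBS KO and 25.4 to 29.2 CPM in WT, mostly PECAM1. Fibroblast markers summed to 178 to 193 CPM in CBS KO and 201 to 228 CPM in WT, mostly COL1A1, with COL1A2 at or near 0. The part of these shifts in the results was not tested. In bulk RNA, fewer cells of a type and less RNA per cell cannot be told apart.

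Ribosomal protein mRNAs took a larger part of the transcriptome in CBS KO cells. The 76 canonical genes held 9.42, 10.6 and 11.7% of all counts in the CBS KO libraries, against 6.99, 7.04 and 7.05% in the WT libraries. All CBS KO libraries lay above all WT libraries, and the CBS KO libraries were far more spread. The means were 10.6 ± 1.14% in CBS KO and 7.03 ± 0.0325% in WT (SD, n = 3 each), a ratio of 1.5. The exact two-sided permutation test over libraries gave p = 0.1, the smallest that 3 against 3 allows, and 0.129 after adjustment over 9 such single-value tests.

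**Figure D1:**
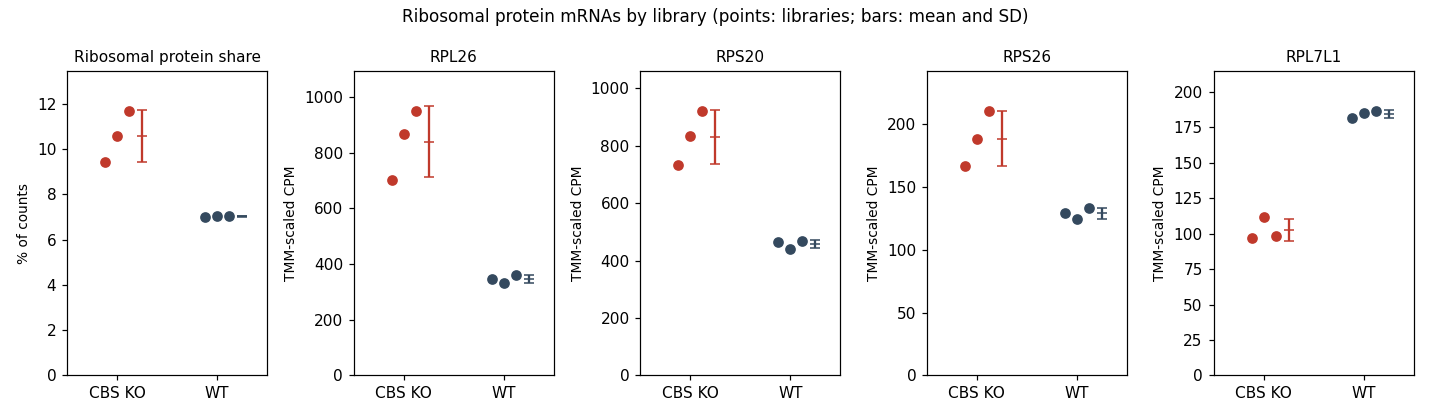
Values in each library, CBS KO left and WT right, with the mean and SD beside the 3 points: the percentage of counts in 76 canonical ribosomal protein genes, then TMM-scaled CPM of RPL26, RPS20, RPS26 and the paralog RPL7L1. The first 4 panels place every CBS KO point above every WT point, and RPL7L1 lies at 97.2 to 111 CPM in CBS KO and 181 to 187 CPM in WT.

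Gene by gene, all 76 canonical mRNAs rose in CBS KO, at an adjusted p between 5.93e-10 and 0.0110 (edgeR's quasi-likelihood test, Benjamini-Hochberg over 13028 genes, called under 0.05). Over all genes tested 38.4% were called higher and 38.9% lower. The median log2 fold change was 0.98 for the canonical genes and −0.01 for all genes tested, with a range over the canonical genes from 0.55 for RPS26 to 1.27 for RPL26, or 1.46-fold to 2.42-fold. Every CBS KO library lay above every WT library in 76 of 76 canonical genes, against 38.9% of all genes tested. At least 2-fold higher and called were 37 of the 76 with TMM, against 12% of all genes tested, but with library totals or on log2(TPM + 1) 0 of the 76 reached 2-fold.

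The size of the rise depended on how libraries were scaled. TMM scaling split the calls over all genes almost evenly, 49.7% of them being higher in CBS KO. Scaled to library totals, 28.6% of calls were higher, all 76 canonical genes were still called higher (22.8% of all genes tested were, and 56.8% were lower), and their median was 0.62 beside −0.36 for all genes. On log2(TPM + 1), 18.9% of calls were higher, 71 canonical genes were called higher and 0 lower (of all genes tested 15.4% were called higher and 66% lower), and the medians were 0.39 for canonical genes and −0.50 for all genes. The 5 not called on that scale were RPL6, RPL7A, RPL38, RPS15 and RPS26. The distance between the canonical median and the median of all genes lay between 0.89 and 1.10 over all scalings, tools and left-out libraries. Other library factors shift all genes by about the same amount, so this distance could hardly move with them.

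RPS20 codes for a protein of the small-subunit head, and inherited mutations in it occur in some families with colorectal cancer. The gene (Entrez ID 6224) lies on GRCh38 chromosome 8, from 56067254 to 56074506. RPS20 mRNA stood at 734, 836 and 923 CPM in CBS KO, against 463, 442 and 469 CPM in WT. The groups did not overlap, and the lowest CBS KO library was well above the highest WT library. The means were 831 ± 94.5 CPM in CBS KO and 458 ± 14.3 CPM in WT (SD, n = 3 each), a log2 fold change of 0.86 ± 0.08 (SE) or 1.81-fold (edgeR, adjusted p = 2.36e-08). It was called higher in every fit across all genes except the fit scaled to the ribosomal protein total, with a log2 fold change between 0.28 on log2(TPM + 1) and 0.93 without CBS KO replicate 1.

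Within the family RPS20 ranked 58 of 76 by fold change, counted from the largest rise. Its TPM was 4648, 4717 and 4588 in CBS KO, against 3901, 3722 and 3903 in WT. These levels again did not overlap, but the gap was smaller than in CPM. Scaled to the summed counts of the canonical genes, its log2 fold change was −0.083 and did not pass the test (edgeR, adjusted p = 0.388). As a share of small-subunit TPM it held 2.72, 2.67 and 2.49% in CBS KO, against 2.83, 2.73 and 2.86% in WT. The means were 2.63 ± 0.122% in CBS KO and 2.81 ± 0.0684% in WT (SD, n = 3 each). All 3 CBS KO values lay below the WT values, by a narrow margin, and the exact two-sided permutation p was 0.1, the smallest possible (0.129 adjusted).

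Both subunits rose by nearly the same factor. Summed over members, large-subunit mRNAs were 1.92 times and small-subunit mRNAs 1.93 times as abundant in CBS KO as in WT, in CPM. The ratio of large-subunit to small-subunit TPM was 0.892, 0.912 and 0.891 in CBS KO and 0.884, 0.897 and 0.896 in WT. The ranges overlapped, and the exact two-sided permutation p was 0.6. The median log2 fold change was 1.02 for the large subunit and 0.94 for the small subunit.

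All 76 canonical genes rose, with a median log2 fold change of 0.98, and 38.4% of all genes tested rose. Each list of canonical members below therefore rose in full. In the small subunit, the 13 head proteins and the 17 proteins of the body and platform had median log2 fold changes of 0.90 and 0.96. The highest was RPS19, a head protein and the gene most often mutated in Diamond-Blackfan anaemia. RPS19 stood at 2108, 2423 and 2722 CPM in CBS KO, against 1000, 1066 and 986 CPM in WT. The lowest CBS KO library was far above the highest WT library (log2 fold change 1.25 ± 0.09 SE, edgeR, adjusted p = 1.09e-09). The next were RPS16 and RPS18, head proteins near the tRNA sites, and RPS13 and RPS27 of the body and platform, with log2 fold changes between 1.09 and 1.13.

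The weakest rise of all canonical mRNAs was that of RPS26, which lines the channel where mRNA leaves the small subunit. RPS26 stood at 167, 188 and 211 CPM in CBS KO, against 129, 125 and 133 CPM in WT. The groups did not overlap but lay close (log2 fold change 0.55 ± 0.07 SE, edgeR, adjusted p = 3.49e-06), and on log2(TPM + 1) the difference was −0.044 and did not pass the test. RPS15, a head protein near the decoding site, came next. RPS15 had 564, 631 and 748 CPM in CBS KO and 433, 412 and 435 CPM in WT, with a log2 fold change of 0.60 ± 0.08 (SE) in CPM and 0.02 in log2(TPM + 1). RPS10, RPS4X and RPS3 followed, with log2 fold changes of 0.77, 0.78 and 0.85. RPS3 and RPS10 sit on the head near the mRNA entry, and RPS4X is the X-linked form of a body protein. The 3 proteins listed at the mRNA entry (RPS2, RPS3 and RPS9) had a median of 0.86.

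In the large subunit, all 8 proteins listed at the polypeptide exit tunnel and its rim rose, with a median log2 fold change of 1.05. RPL26, beside the tunnel exit and also known to bind p53 mRNA, rose most of all 76. RPL26 stood at 700, 866 and 951 CPM in CBS KO, against 347, 333 and 362 CPM in WT. The groups were again far apart (log2 fold change 1.27 ± 0.09 SE, 2.42-fold, edgeR, adjusted p = 7.23e-09). RPL31 at the tunnel rim and RPL39 inside the tunnel reached 1.17 and 1.11, and RPL4, whose loop lines the tunnel, 0.92. RPL17 and RPL19 of the same list rose less, by 0.80 and 0.74.

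The P stalk recruits the elongation factors that drive translation. Its 4 listed genes, the scaffold RPLP0, the acidic proteins RPLP1 and RPLP2 and the base protein RPL12, all rose, with a median of 1.01. RPL12 had 2323, 2739 and 3044 CPM in CBS KO and 1222, 1178 and 1211 CPM in WT (log2 fold change 1.17), while RPLP1 had 1189, 1277 and 1568 CPM in CBS KO and 764, 642 and 763 CPM in WT (0.89). No library of CBS KO overlapped WT in either gene. RPL5 and RPL11 join 5S ribosomal RNA in a particle that binds MDM2 when ribosome assembly is disturbed. They rose by log2 fold changes of 0.94 and 1.05.

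The lowest of the large subunit were RPL7A and RPL6, proteins of its outer surface, and RPL3, which reaches toward the peptidyl transferase centre. RPL7A stood at 2646, 2876 and 3171 CPM in CBS KO, against 1852, 1903 and 1867 CPM in WT (log2 fold change 0.63 ± 0.08 SE, edgeR, adjusted p = 1.23e-06). RPL3 stood at 3976, 4426 and 5012 CPM in CBS KO, against 2777, 2789 and 2669 CPM in WT (0.70 ± 0.09 SE). Neither gene overlapped between groups, yet both rose less than most of the family. RPL19, which reaches across to the small subunit, and RPL23, on the face turned to it, completed the lowest 5 at log2 fold changes of 0.74 and 0.75. RPL38, which in mice is needed for translation of Hox mRNAs, had the largest standard error: it had 271, 397 and 442 CPM in CBS KO and 191, 233 and 189 CPM in WT (0.86 ± 0.20 SE, edgeR, adjusted p = 0.0110), and without CBS KO replicate 3 it was not called. The 18 members listed here for Diamond-Blackfan anaemia, an inherited failure of red cell formation, all rose, with a median of 1.03. The list need not be complete.

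Differences within the family were measured with the summed counts of the 76 canonical genes as the library size. On that scale 7.77% of all genes tested were called higher and 77.1% lower, and of the 76 members 6 were called higher and 7 lower. The share of members called higher, 7.89%, was near that of all genes tested. Higher than the family were RPL26 (log2 fold change 0.33), RPS19 (0.30), RPL31 (0.22), RPL12 (0.22), RPS16 (0.18) and RPS18 (0.17). Lower than the family were RPS26 (−0.40), RPS15 (−0.34), RPL7A (−0.31), RPL6 (−0.28), RPL3 (−0.24), RPL19 (−0.20) and RPL23 (−0.20). The other 63 members did not pass the test.

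These calls were not equally firm. RPL26 and RPS19 were called higher, and RPL3, RPL6, RPL7A, RPS15 and RPS26 lower, in all 10 fits on this scale, which included DESeq2, the replicate block, a geometric-mean reference and each library left out. RPL12 was called in 8 of the 10, RPL31 and RPL19 in 6, RPL23 in 5, RPS18 in 3 and RPS16 in 2. Leaving out CBS KO replicate 1 raised the counts to 16 higher and 12 lower (7.27% and 80.9% of all genes tested), whereas leaving out CBS KO replicate 2 left 2 higher and 5 lower (7.27% and 74.3%).

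Between libraries the family moved as a block. CBS KO replicate 3 was the highest of all 6 libraries in 76 of 76 canonical genes, and CBS KO replicate 1 was the lowest of the CBS KO libraries in 75 of 76. The share of all genes tested with this order was not computed, so the order is not shown to be particular to the family. Outside the family, NDUFA13 stepped the same way in CBS KO (43.1, 52.4 and 63.0 CPM) and GRWD1 the other way (16.8, 14.9 and 11.5 CPM). Summed, the canonical genes reached 104076, 118870 and 136095 CPM in CBS KO, against 62122, 62171 and 62302 CPM in WT; TMM factors enter these sums, so they are not the shares of counts given above. The WT libraries lay almost on top of each other, whereas the CBS KO libraries stepped apart. The coefficient of variation of a canonical gene had a median of 13.8% in CBS KO (6.10 to 24.0%) and of 2.45% in WT (0.452 to 16.17%), while over all genes tested the medians were 8.16% in CBS KO and 5.11% in WT.

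The CBS KO libraries also differed in the length that the deposited counts and FPKM imply for a gene, their ratio, which depends on how the authors computed effective length. For the short RPS29 mRNA it was 33.7, 37.8 and 42.1 bases in CBS KO and 37.3, 38.9 and 38.1 bases in WT. For the longer RPS2 mRNA it was 630, 644 and 658 bases in CBS KO and 644, 644 and 647 bases in WT. CBS KO replicate 2 was close to WT in both genes. The share of counts in canonical genes ran in the same order over the CBS KO libraries, at 9.42, 10.6 and 11.7%, against 6.99, 7.04 and 7.05% in WT. The part of the length difference in the spread among CBS KO libraries, or in their difference from WT, was not tested.

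Levels between genes were compared per length, in TPM. By the mean over all libraries, the highest in the small subunit were RPS27, RPS21 and RPS2. RPS27 had 19319 ± 1071 TPM in CBS KO and 14479 ± 515 TPM in WT, and RPS21 had 16811 ± 1087 TPM in CBS KO and 13416 ± 741 TPM in WT (SD, n = 3 each). RPS2, at the mRNA entry, had 13640 ± 520 TPM in CBS KO and 11340 ± 286 TPM in WT, and the head protein RPS18 had 14079 ± 677 TPM in CBS KO and 9764 ± 382 TPM in WT. RPS2 and RPS18 thus stood in opposite order in the groups, and in CBS KO they differed by less than their spread. The highest in the large subunit were RPL12, RPL39 and RPL35, and RPL12 reached 9945 ± 391.96 TPM in CBS KO and 6672 ± 120 TPM in WT. The lowest were RPS26, RPS28 and RPS23 in the small subunit and RPL14, RPL37 and RPL32 in the large subunit, with RPL14 at 120 ± 6.69 TPM in CBS KO and 99.2 ± 2.09 TPM in WT. These orders lean on the implied lengths, which ran from 37.9 bases for RPS29 to 7272 bases for RPL37, so a low TPM can belong to a gene given a long transcript. RPL37 had 877, 1204 and 1394 CPM in CBS KO and 543, 546 and 567 CPM in WT, although its TPM was among the lowest.

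The rise had little relation to the level or the implied length of a member. Across the 76 genes of the same libraries, the log2 fold change had a Pearson r of 0.03 and a Spearman rho of −0.04 with log2 mean CPM, and an r of −0.15 and a rho of −0.21 with log2 implied length. Summed CPM rose 1.99-fold for the 39 members under 500 bases, 1.86-fold for the 23 from 500 to 1500 bases and 1.94-fold for the 14 above. Among other genes tested with an implied length, the 362 under 500 bases had a median log2 fold change of 0.40 and 58.0% called higher, the 2283 from 500 to 1500 bases a median of 0.06, and the 9887 above a median of −0.05. The 1148 other genes at or above the lowest mean CPM of a canonical member (159 CPM) had a median of 0.33, and 61.4% of them were called higher. The canonical medians in the same length classes were 1.03, 0.90 and 0.91.

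**Figure D2:**
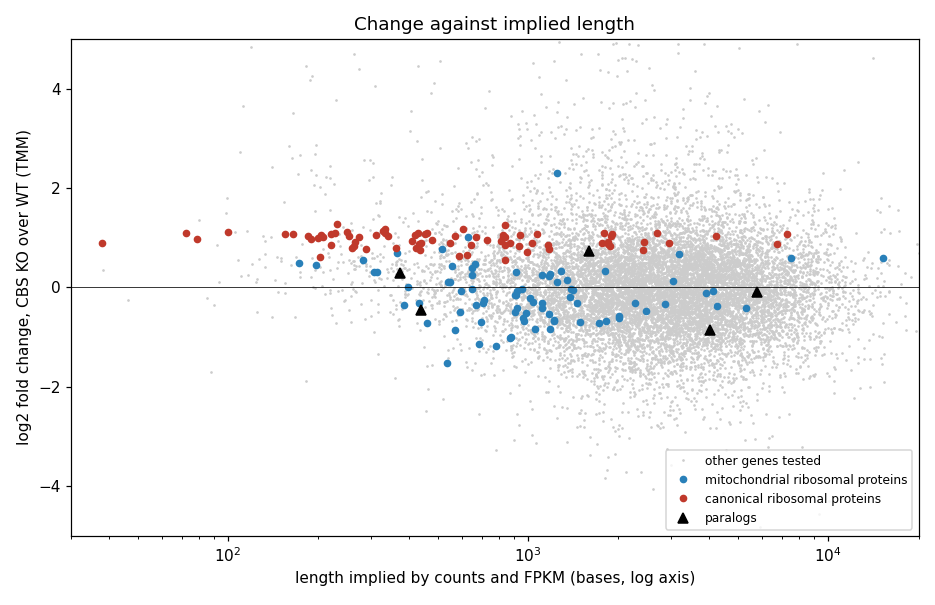
Log2 fold change (CBS KO over WT, TMM-scaled counts) of each gene tested against the length implied by its counts and FPKM (bases, log axis), with the few genes beyond the axis limits not shown. The 76 canonical ribosomal proteins (red) lie between 0.55 and 1.27 at every length, while mitochondrial ribosomal proteins (blue) spread on both sides of 0 and 4 of the 5 paralogs tested (black triangles) lie below the canonical range.

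Most paralogs did not follow their parents. Of 5 tested, 2 rose, 2 fell and 1 did not pass the test, which is near the 38.4% higher and 38.9% lower over all genes tested. On log2(TPM + 1) 4 were called lower and 0 higher, on a scale where 66% of all genes tested were called lower. RPL7L1, a nucleolar relative of RPL7 used in making the large subunit, fell most. RPL7L1 stood at 97.2, 111 and 98.5 CPM in CBS KO, against 181, 185 and 187 CPM in WT. The groups were far apart, in the opposite direction to the canonical genes (log2 fold change −0.85 ± 0.06 SE, 1.80-fold lower, edgeR, adjusted p = 2.30e-09). RPL26L1, a near copy of RPL26 from a gene with introns, had 15.1, 19.6 and 18.4 CPM in CBS KO and 26.0, 22.5 and 24.3 CPM in WT. It fell without overlap while its parent rose most of the family (−0.46 ± 0.10 SE, edgeR, adjusted p = 0.000508).

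RPS27L, a p53-induced relative of RPS27, had 18.6, 24.9 and 24.3 CPM in CBS KO and 24.4, 24.9 and 23.4 CPM in WT. The groups overlapped in CPM, and the log2 fold change of −0.10 ± 0.10 (SE) was not called (edgeR, adjusted p = 0.347); on log2(TPM + 1) it was called at −0.60. RPL36AL, an expressed copy of RPL36A, had 85.7, 102 and 127 CPM in CBS KO and 84.5, 84.1 and 90.0 CPM in WT. Its lowest CBS KO library lay within the WT range, and the call (0.28 ± 0.11 SE, edgeR, adjusted p = 0.0371) was lost without CBS KO replicate 3, without WT replicate 1 or without WT replicate 2, and turned to −0.32 on log2(TPM + 1). RPL22L1, which can replace RPL22 in ribosomes, had 20.7, 21.0 and 23.2 CPM in CBS KO and 12.4, 13.5 and 13.1 CPM in WT. It was the paralog that rose clearly without overlap (0.74 ± 0.09 SE, edgeR, adjusted p = 1.03e-06), though it was not called on log2(TPM + 1), at 0.14. RPL3L, the form of striated muscle, had counts of 1, 1 and 0 in CBS KO and 1, 1 and 2 in WT, too few for a test.

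A paralog's share of the summed TPM of the pair does not depend on how libraries are scaled. RPL7L1 made up 1.34 ± 0.170% of the TPM of RPL7 and RPL7L1 in CBS KO and 4.08 ± 0.209% in WT. RPL26L1 made up 1.09 ± 0.0668% of its pair in CBS KO and 3.55 ± 0.194% in WT, and RPL36AL 15.8 ± 0.430% in CBS KO and 24.8 ± 1.22% in WT. RPS27L made up 0.0247 ± 0.00190% of its pair in CBS KO and 0.0534 ± 0.00271% in WT (SD, n = 3 each). In these 4 pairs every CBS KO share lay below every WT share, with an exact two-sided permutation p of 0.1, the smallest possible (0.129 adjusted). RPL22L1 made up 3.30 ± 0.224% of its pair in CBS KO and 3.62 ± 0.225% in WT, with overlapping ranges (exact permutation p = 0.2, 0.225 adjusted).

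The tract at the start went with a larger rise inside the family, in the median. The 42 canonical genes with a tract had a median log2 fold change of 1.04 and the 19 without a median of 0.87. Across the 61 genes with an entry, the log2 fold change had a Pearson r of 0.36 and a Spearman rho of 0.37 with the length of the tract. Of the 5 lowest genes of each subunit, 9 had an entry. RPS26, RPS15, RPS4X, RPL6, RPL3 and RPL19 had no tract of at least 5 bases at the annotated start, though RPL3 had 4 bases. RPL7A had a tract of 16 bases, RPS3 of 11 and RPS10 of 7. In RPS26 a pyrimidine run lies just after the annotated start, and an annotated start need not be the one used in these cells. RPL9, without a tract, rose by 1.10. Of the other genes tested, the 530 with a tract had a median of 0.14 and 45.7% called higher, against a median of −0.03 and 37.2% called higher in the 10067 without. The median of canonical genes without a tract was thus above that of other genes with a tract.

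RPS27A and FAU, whose ribosomal proteins are made as fusions to ubiquitin or a ubiquitin-like protein, rose as well, with log2 fold changes of 1.08 and 0.78. Of 18 other genes listed for TOP mRNAs, 17 rose, 0 fell, and EIF3K, an initiation factor subunit, was not called at −0.03, against 38.4% higher and 38.9% lower over all genes tested. Their median of 0.63 was below that of the canonical genes. On log2(TPM + 1) 6 were called higher and 4 lower, where over all genes tested 15.4% were higher and 66% lower. TPT1, a growth-related calcium-binding protein, stood at 3908, 4087 and 4508 CPM in CBS KO, against 1554, 1525 and 1485 CPM in WT. It rose more than any canonical ribosomal protein gene (1.45 ± 0.08 SE, edgeR, adjusted p = 3.81e-11). The elongation factor subunits EEF1A1, EEF1B2 and EEF1G rose by 1.08, 0.90 and 0.85, and EEF1A1 held the most counts of any gene in all 6 libraries.

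Most of the dedicated chaperones and carriers of ribosomal proteins were lower in CBS KO. Of 8 tested, 6 fell and 1 rose, with a median log2 fold change of −0.56, against 38.9% lower and 38.4% higher over all genes tested. On log2(TPM + 1) all 8 were called lower, as were 66% of all genes tested. GRWD1, which guards RPL3, had 16.8, 14.9 and 11.5 CPM in CBS KO, against 28.7, 29.6 and 35.2 CPM in WT. HEATR3, which carries RPL5 and RPL11 into the nucleus, had 17.1, 16.9 and 13.9 CPM in CBS KO, against 29.4, 27.8 and 33.4 CPM in WT. Neither overlapped between groups, and the log2 fold changes were −1.11 ± 0.12 and −0.92 ± 0.10 (SE; edgeR, adjusted p = 3.94e-07 and 2.48e-07). AAMP, whose yeast counterpart Sqt1 holds Rpl10, had a log2 fold change of −0.70, LTV1, which accompanies RPS3, of −0.62, BCCIP, which accompanies RPL23, of −0.50, and PDCD2L, a relative of PDCD2, of −0.46. TSR2, the carrier of RPS26, just missed the threshold at −0.15 (edgeR, adjusted p = 0.0504). PDCD2, which holds RPS2, was called at 0.29 with TMM and at −0.29 on log2(TPM + 1).

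Mitochondrial ribosomal proteins moved in both directions. Of 78 tested, 20 rose (25.6%, against 38.4% of all genes tested) and 40 fell, where 38.9% of all genes tested fell, with a median log2 fold change of −0.21. MRPL23 rose most (2.29) and MRPS6 by 1.0, while MRPS28 stood at −1.52 and MRPL16 at −1.18. Estimated counts of MRPL23 were not whole in all 6 libraries, and were 56.8, 57.8 and 51.1 in WT. The respiratory chain subunits had 33 higher (42.3%) and 20 lower of 78 tested, a share higher that is near that of all genes tested. Their median was 0.09, with COX6B2 at 1.71, COX7A2L at 0.86 and NDUFA8 at −0.74. COX6B2 had few counts, 17.4, 21.0 and 25 in CBS KO and 9, 11.1 and 9 in WT. On log2(TPM + 1) 2 of 78 mitochondrial ribosomal proteins and 2 of 78 respiratory chain subunits were called higher, where 15.4% of all genes tested and 71 of 76 canonical cytosolic genes were.

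**Figure D3:**
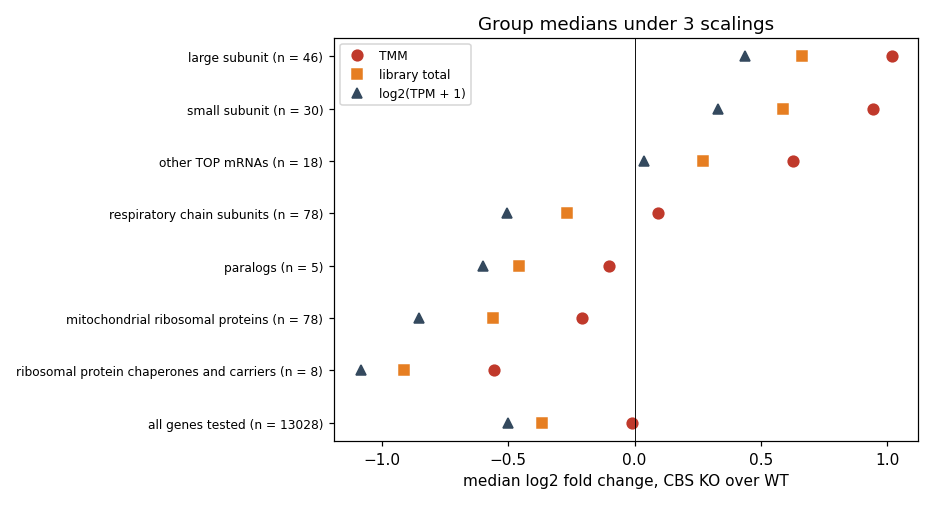
Median log2 fold change (CBS KO over WT) of each gene group, with the number tested, under TMM, library-total scaling and log2(TPM + 1). The large and small subunits are at the right on each scale, at 1.02 and 0.94 with TMM, and the chaperones and carriers at the left, at −0.56 with TMM.

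Some counts are uncertain because reads can match more than 1 gene. RPL12, RPL17, RPL36A, RPL41, RPS10 and RPSA had estimated counts that were not whole in all 6 libraries. RPL17, RPL36A and RPS10 share exons with the readthrough loci RPL17-C18orf32, RPL36A-HNRNPH2 and RPS10-NUDT3, whose log2 fold changes were 0.59, 1.64 and 1.0, all called with TMM. RPL17-C18orf32 was not called with library totals (0.24) or on log2(TPM + 1) (0.0054), and RPS10-NUDT3 was not called on log2(TPM + 1) (0.35). The readthrough RPL36A-HNRNPH2 was rare, at 9.76, 15.4 and 17.2 CPM in CBS KO and 3.46, 3.89 and 6.23 CPM in WT. Processed pseudogenes of ribosomal proteins are many, and how their reads were assigned is not given in the sources used here. RPS19BP1 was called at a log2 fold change of 0.43 with TMM and was not called with library totals or on log2(TPM + 1).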

How the data were processed

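Poly(A) RNA of 3 CBS KO and 3 WT libraries was measured. StringTie 2.1.6, HISAT2 2.2.1, edgeR, DESeq2 and cutadapt 1.9 appear in the submitters' processing notes without roles, beside the build GRCh38. The authors deposited estimated counts per gene, not normalised (7.12 to 7.43% of the values in a library are not whole), FPKM values, and TPM values, which sum to 1000000 in a library, per the file headers. Their 6 mean columns were not used.

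Counts were rounded, filtered with filterByExpr (13028 of 16781 genes) and scaled by TMM (factors 0.860 to 0.905 in CBS KO, 1.13 in WT). CBS KO and WT were compared by edgeR's quasi-likelihood test (edgeR 4.0.16, limma 3.58.1, R 4.3.3) with no covariate, p-values adjusted over all genes tested by Benjamini-Hochberg, called under 0.05. CPM are TMM-scaled; standard errors come from the estimate and its F statistic. FPKM and TPM were tested with limma on log2(value + 1), a scale that understates changes of low genes. Scaling to the summed canonical counts makes each member part of its own total. Single values were compared by exact two-sided permutation. A count of 0 allows up to 0.234 CPM on library totals, before TMM factors (3 counts, counting error only). Motifs were searched on both strands from 250 bases before to 50 after the start in RefSeq's promoter table. The tract was read at the start on the gene's strand only. Only promoters on X and on numbered chromosomes other than 8 were used. The scripts were tested on simulated data. DESeq2 1.42.0 and the other alternatives are given at the end.

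Members and lists were chosen with earlier results of these data known. Named genes were RPS20, CBS, CBSL, the 5 highest and 5 lowest fold changes and the 3 highest and 3 lowest TPM per subunit, paralogs, members called against the family total, and up to 4 per direction of each other list. RPL38, RPL4, RPL5, RPL11, the RPLP genes, members named by list or promoter, and readthrough loci were named for their role or after their values were seen. A few genes that this rule or the lists would name are not reported here.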

Additional observations from a re-analysis of the deposited data

How the results depend on the processing

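The canonical genes stayed higher in every fit that was not scaled to their own total: 76 of 76 with median-ratio factors, library totals, upper quartile, both count filters, DESeq2, FPKM and 5 of the 6 fits with a library left out, 75 without CBS KO replicate 3, and 71 on either TPM scale. Whether samples with the same number share more than that number is not stated in the sources used here. Deviations of same-numbered libraries from their group means correlated at 0.04, 0.02 and 0.02, and those of differently numbered libraries at −0.047 to 0.024. With so few libraries these values cannot show whether a batch was shared. With the replicate block 4986 genes were higher and 5058 lower, all 76 canonical genes higher, and RPS20 stood at 0.85.

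Counts over all genes moved with scaling. Genes called higher (4998 in the report) numbered 2966 with library totals, 2945 and 2943 with FPKM + 1 and + 0.1, 2003 and 2001 with TPM + 1 and + 0.1, and 1012 with the ribosomal protein total. Genes called lower (5062) numbered 8594 and 8577 on the TPM scales and 10050 with the ribosomal protein total. Leaving out 1 library gave 4744 to 5028 higher and 4818 to 5234 lower. The log2 ratio of the ribosomal protein share was 0.59 in counts, 0.38 in TPM or FPKM, and 0.51 to 0.66 with a library left out. The large to small subunit ratio was 0.00952 on the log2 scale, and −0.00146 to 0.0153 with a library left out. Against the family total, 6 genes higher and 7 lower became 4 and 5 with DESeq2, 5 and 7 with the block and 4 and 7 with the geometric mean; with a library left out, 2 to 16 were higher and 5 to 12 lower. The cause of these moves was not tested, except that a scaling to the family total sets the family near 0 by construction.

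On that last scale these log2 fold changes turned below 0: RPS20 −0.083, RPL7A −0.31, RPL6 −0.28, RPL3 −0.24, RPL19 −0.20, RPL23 −0.20, RPL14 −0.072, RPS26 −0.40, RPS15 −0.34, RPS10 −0.17, RPS4X −0.16, RPS3 −0.10, RPS2 −0.085, RPS28 −0.059, RPS23 −0.061, RPL22L1 −0.20, RPL36AL −0.67, FAU −0.17, EEF1B2 −0.036, EEF1G −0.090, PDCD2 −0.64, MRPL34 −0.18, MRPS24 −0.25, COX7A2L −0.077, COX6A1 −0.28 and NDUFC1 −0.30. On other scales, RPS26 turned to −0.0443 with TPM + 1 and −0.0444 with TPM + 0.1. RPL36AL turned to −0.075 with library totals, −0.0858 with FPKM + 1, −0.0861 with FPKM + 0.1 and −0.32 with TPM at either pseudocount. PDCD2 turned to −0.063 with library totals, −0.066 with FPKM + 1, −0.068 with FPKM + 0.1, −0.29 with TPM + 1 and −0.30 with TPM + 0.1. Depth was ample for canonical genes, and limits RPL3L and the readthrough loci, which have few counts.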
